A study of Homo sapiens with 6 samples.

Results

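The 10 genes described here encode the co-repressors that act with KRAB zinc-finger proteins: TRIM28, SETDB1, ATF7IP, CBX1, CBX3, CBX5, MORC2, TASOR, MPHOSPH8 and PPHLN1. They were chosen by name for this role and not by a rule on measured values, but with earlier results of these data known. Each was matched to 1 Ensembl identifier among the 26613 genes with a count in any library. All 10 passed the filter on low counts that left 15607 genes for testing. The libraries were rRNA-depleted RNA-seq of 293T cells, an easily transfected derivative of a human embryonic kidney line. In 3 libraries the cells had been given a miR-941 duplex (the mimic group, 10 nM), and in 3 they had been given a scrambled oligonucleotide of unrecorded concentration (the mock group). Cells were plated 24 h before the Lipofectamine 2000 transfection, the mock transfection ran in parallel, and untransfected cells were not analysed here. Effects of oligonucleotide dose and of oligonucleotide sequence therefore cannot be told apart. Replicates are independent transfections of 1 line according to the labels, so their spread does not cover other lines. Gene positions below are those of GENCODE release 29 on GRCh38.

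KRAB zinc-finger proteins bind DNA, mostly in transposable elements, and recruit the scaffold protein TRIM28 (KAP1). TRIM28 brings in the methyltransferase SETDB1, which needs its partner ATF7IP for stability and nuclear retention and places trimethylation on lysine 9 of histone H3. The heterochromatin proteins HP1 beta (CBX1), HP1 gamma (CBX3) and HP1 alpha (CBX5) read that mark. The HUSH complex, made of TASOR, MPHOSPH8 (MPP8) and PPHLN1 (periphilin), silences transposons and transgenes over the same mark and works with SETDB1 and with the ATPase MORC2.

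Total counts were 6401918 to 7651046 in the mimic libraries and 6079420 to 7405330 in the mock libraries. Single counts of the 10 genes lay between 290 (MPHOSPH8) and 5194 (TRIM28), so that counting error alone was 5.87% at the lowest and 1.39% at the highest. Of 8 genes listed as markers of HEK293 cells, 7 had at least 3 counts in every library, among them KRT8, VIM and LIN28B, and NEFL was not analysed here. Their summed level was 2229 to 2306 CPM (counts scaled to a common library total) in the mimic group and 2105 to 2189 CPM in the mock group, without overlap, and NEFM and KRT18 rose. Of 8 markers of other cell types, 5 had any count, and their summed level was 52.5 to 56.4 CPM in the mimic group and 49.3 to 54.96 CPM in the mock group. Of these, COL1A1 (mean 38.1 CPM in mimic and 36.3 CPM in mock cells) and ACTA2 (15.2 and 14.5 CPM) had at least 3 counts in every library. The T cell gene CD3E had 1 count in 1 library, and PTPRC, HBB and PECAM1 were not analysed here. The part of the difference in HEK293 markers in the results below was not tested. In bulk RNA a smaller number of cells with a transcript and a lower amount per cell cannot be told apart.

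A microRNA lowers mRNAs mainly through 3′ UTR sites that pair with its seed, bases 2 to 8, so the mature strand and its matches among the 10 genes are shown to place the members against the transfected duplex. The strand is identical in the 5 MIR941 hairpin genes on chromosome 20 in RefSeq (GRCh38.p14), 23 bases long, with the seed in capitals.
hsa-miR-941: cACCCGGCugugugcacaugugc
The 7-base DNA site that pairs with the seed is GCCGGGT. None of the 10 genes had it in its longest annotated 3′ UTR (GENCODE release 29, GRCh38), where 5.39% of 13110 tested genes with a 3′ UTR did. A search of all 123 annotated transcripts of the 10 genes, on the transcript strand, found it in 1 transcript each of CBX1 and MORC2, both times in the 5′ UTR and never in coding sequence (chr17:48100844-48100850 and chr22:30963268-30963274, both on the minus strand). These sites lie in exon 1 of 5 in CBX1 and in exon 2 of 27 in MORC2. The sites follow with 11 bases on each side and the matching bases in capitals.
CBX1, 5′ UTR: attcggaagacGCCGGGTccggctgggac
MORC2, 5′ UTR: agaatttctagGCCGGGTgctgtggctca
These matches are letters in annotated transcripts, and the reads were not examined over them.

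Of the 10 genes, CBX5, MORC2 and TASOR rose and MPHOSPH8 fell in mimic cells, while the other 6 did not pass the test. The largest change was that of MPHOSPH8, whose level fell to 0.711 of that in mock cells, and the risen genes changed by 0.20 to 0.25 on the log2 scale. Calls used the quasi-likelihood test of edgeR, with p-values adjusted by Benjamini and Hochberg's method over all 15607 genes and a threshold of 0.05. By this rule 13.0% of all genes were called, 6.80% as risen and 6.19% as fallen. The median log2 fold change was 0.02 over the 10 genes and 0.00 over all tested genes. In 6 of the 10 genes the mimic and mock ranges did not overlap (3 higher, 3 lower in mimic), which was so for 28.3% of all tested genes, 14.4% higher and 13.9% lower. Without mock replicate 1, or with DESeq2's Wald test, only MPHOSPH8 and CBX5 of the 10 were called. Without mock replicate 1, 8.22% of all tested genes were called. With DESeq2 it was 8.70% of the 11673 genes that were given an adjusted p, a smaller base than in the other fits. The share of all genes called was 7.15% with no filter on low counts, 15.7% among genes of at least 5 CPM, 13.0% with DESeq2 size factors and 11.7% with a replicate block. It was 9.14%, 10.7% and 13.0% without mimic replicate 1, 2 or 3, and 10.1% and 8.68% without mock replicate 2 or 3.

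**Figure D1:**
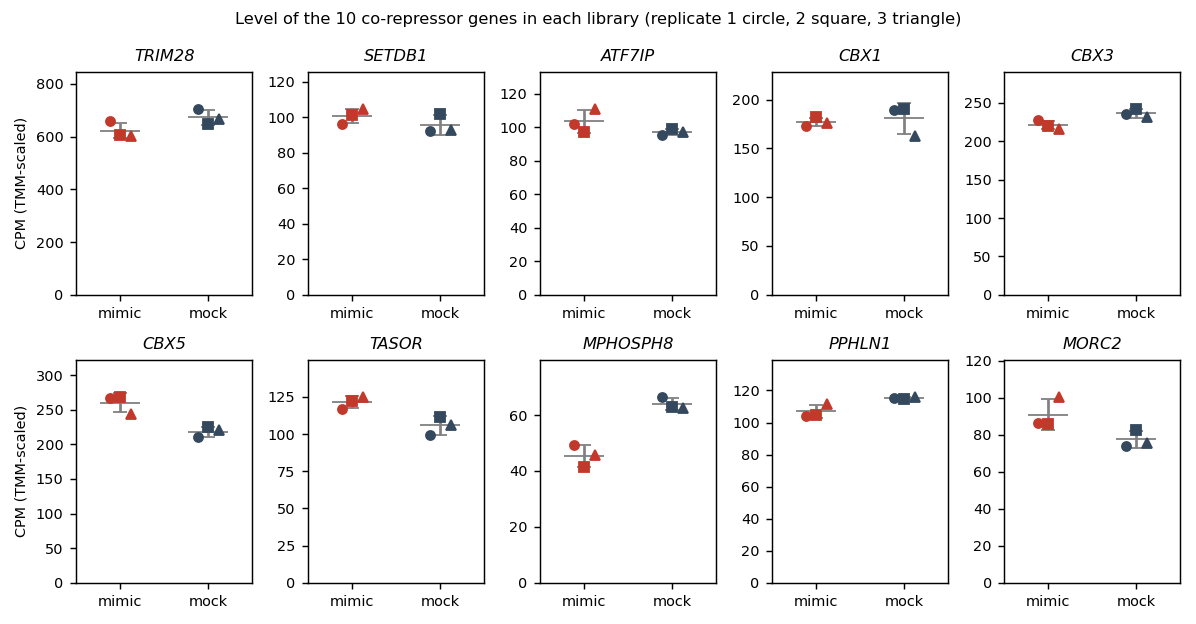
Level of each of the 10 co-repressor genes, in TMM-scaled CPM, in the 3 mimic and the 3 mock libraries, each axis starting at 0; grey bars are the mean and SD (n = 3), and the marker shape gives the replicate number. The mimic libraries lie apart from and below the mock libraries for MPHOSPH8 (41.5 to 49.2 against 62.5 to 66.5 CPM) and apart from and above them for CBX5 (244 to 268 against 210 to 224 CPM).

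**Figure D2:**
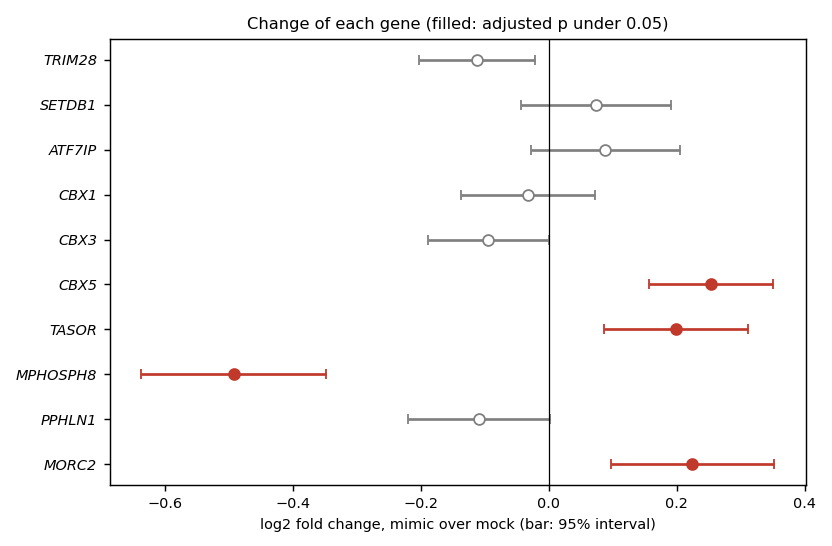
Log2 fold change, mimic over mock, of each gene with its 95% interval, ordered by role from TRIM28 down to MORC2; filled points passed an adjusted p of 0.05. The 4 filled points are CBX5 (0.25), TASOR (0.20), MPHOSPH8 (−0.49) and MORC2 (0.22).

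Subunits of the HUSH core did not share a direction. MPHOSPH8 (chr13:19633681-19673459, plus strand), whose chromodomain binds methylated lysine 9 of histone H3, had 49.2, 41.5 and 45.6 CPM in the mimic libraries and 66.5, 62.8 and 62.5 CPM in the mock libraries. The highest mimic library was thus well below the lowest mock library. Its log2 fold change was −0.49 ± 0.07 (SE; adjusted p = 3.48e-07 by edgeR), with a mean of 45.4 ± 3.85 CPM in mimic cells and 63.9 ± 2.21 CPM in mock cells (SD, n = 3 each). The call was made under all 11 alternatives, with log2 fold changes from −0.56 to −0.43. A processed pseudogene, ENSG00000255836, shares 0.74% of the 100-base stretches of MPHOSPH8 transcripts and was counted at 4.6% of its level.

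TASOR (chr3:56620133-56683237, minus strand), the scaffold subunit that holds the complex together, had 117, 123 and 125 CPM in the mimic libraries and 99.6, 112 and 106 CPM in the mock libraries. All mimic libraries were above all mock libraries, with a narrow gap between mimic replicate 1 and mock replicate 2. The log2 fold change was 0.20 ± 0.06 (adjusted p = 0.0106 by edgeR). That call ended with DESeq2 (adjusted p = 0.0687) and without mock replicate 1 (0.137), and it was made under the other 9 alternatives. Exons of CCDC66 on the opposite strand cover 2.92% of the exonic bases of TASOR, and CCDC66 was counted at 26.9% of its level, with a log2 fold change of 0.06. The sources used here do not say whether reads were counted by strand.

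PPHLN1 (chr12:42238447-42459715, plus strand), the RNA-binding subunit, had 104, 105 and 112 CPM in the mimic libraries and 115, 115 and 116 CPM in the mock libraries. The groups did not overlap, and the mock libraries lay close together. The log2 fold change was −0.11 ± 0.06, with a 95% interval of −0.22 to 0.00, and it did not pass (adjusted p = 0.203 by edgeR). The origin of PPHLN1 counts is less certain. Its annotated transcripts share 100-base stretches with 29 other counted genes, each covering at most 2.60% of its stretches and counted at up to 244% of its level, and exons of PRICKLE1, itself fallen by 0.29 on the log2 scale, overlap it on the opposite strand.

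MORC2 (chr22:30925130-30968298, minus strand), the ATPase that HUSH recruits to compact chromatin, had 86.4, 85.9 and 100.4 CPM in the mimic libraries and 74.1, 82.9 and 75.7 CPM in the mock libraries. Mimic replicate 3 stood above the other mimic libraries, and mock replicate 2 came close to the lower ones without reaching them. The log2 fold change was 0.22 ± 0.06 (adjusted p = 0.0112 by edgeR). Among the 4 called genes this was the call lost most often, under 4 of 11 alternatives. The log2 fold change of MORC2 then had an adjusted p of 0.0818 with DESeq2, 0.102 when mock replicate 1 was left out and 0.0697 when mock replicate 3 was. Leaving out mimic replicate 3 moved it to 0.15 (adjusted p = 0.106 by edgeR).

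Among the HP1 genes only CBX5 passed the test. CBX5 (HP1 alpha, a protein of constitutive heterochromatin; chr12:54230940-54280133, minus strand) had 267, 268 and 244 CPM in the mimic libraries and 210.0, 224 and 220 CPM in the mock libraries. Mimic replicate 3 was the lowest of its group and still above all mock libraries. CBX5 changed by 0.25 ± 0.05 on the log2 scale (adjusted p = 8.41e-05 by edgeR), and the call was made under all 11 alternatives, with log2 fold changes from 0.22 to 0.29.

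CBX1 (HP1 beta; chr17:48070052-48101521, minus strand) had 173, 182 and 176 CPM in the mimic libraries and 189, 190.2 and 162 CPM in the mock libraries. The mimic values lay inside the mock range, in which mock replicate 3 was low. The log2 fold change was −0.03 ± 0.05, with a 95% interval of −0.14 to 0.07, and its sign turned without mock replicate 1 or mock replicate 2. CBX3 (HP1 gamma, also found on transcribed genes; chr7:26201162-26213356, plus strand) had 227, 220.2 and 216 CPM in the mimic libraries and 236, 242 and 231 CPM in the mock libraries. The groups did not overlap, but the log2 fold change of −0.09 ± 0.05 did not pass (adjusted p = 0.197 by edgeR; 95% interval −0.19 to 0.00). Exons of HNRNPA2B1, which lies head to head with CBX3 on the opposite strand and was counted at 816% of its level, cover 7.93% of the exonic bases of CBX3, so CBX3 is less certain. HNRNPA2B1 itself had a log2 fold change of −0.05. The processed pseudogene CBX3P9 was counted at 5.94% of the level of CBX3.

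TRIM28 (chr19:58544091-58550722, plus strand), the scaffold that KRAB domains bind, had 658, 608 and 604 CPM in the mimic libraries and 704, 647 and 669 CPM in the mock libraries. Mimic replicate 1 lay above mock replicate 2, so the groups overlapped. On the log2 scale TRIM28 differed by −0.11 ± 0.05, with a 95% interval of −0.20 to −0.02, and it did not pass after adjustment over all genes (adjusted p = 0.0952 by edgeR). Under the 11 alternatives the log2 fold change stayed between −0.15 and −0.08 and was never called.

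SETDB1 (chr1:150926263-150964744, plus strand), the lysine 9 methyltransferase, had 96.5, 101 and 105 CPM in the mimic libraries and 92.2, 102 and 92.6 CPM in the mock libraries. Its groups overlapped through mock replicate 2, and the log2 fold change of 0.07 ± 0.06 did not pass (95% interval −0.04 to 0.19; adjusted p = 0.474 by edgeR). Exons of CERS2 on the opposite strand cover 13.4% of the exonic bases of SETDB1, and CERS2, counted at 222% of its level, changed by −0.51, so the value for SETDB1 is uncertain if the counting ignored strand. ATF7IP (chr12:14365632-14502935, plus strand), the partner that stabilises SETDB1, had 102, 97.2 and 111 CPM in the mimic libraries and 95.4, 99.0 and 97.1 CPM in the mock libraries. The groups overlapped: mock replicate 2 lay above mimic replicate 2, and the other mock libraries lay just below all mimic libraries. Its log2 fold change was 0.09 ± 0.06 (95% interval −0.03 to 0.20; adjusted p = 0.364 by edgeR).

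**Figure D3:**
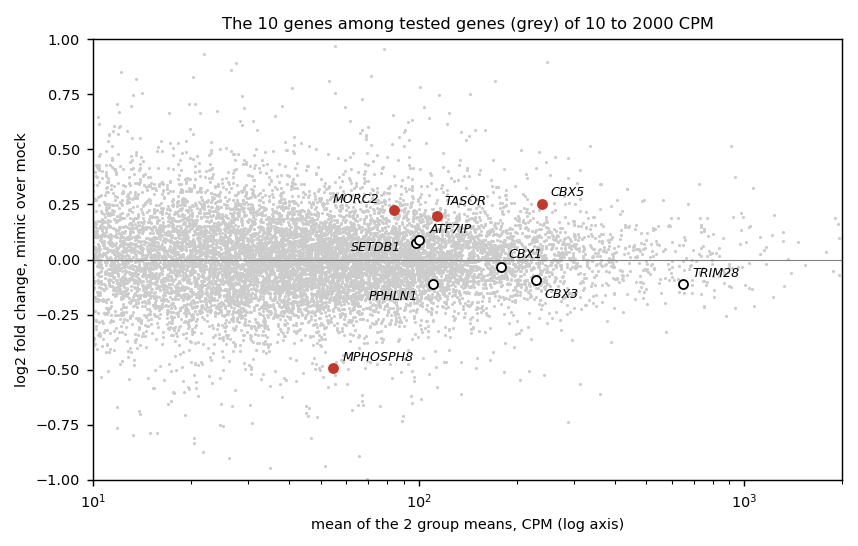
Log2 fold change, mimic over mock, against the mean level in CPM (log axis) for tested genes of 10 to 2000 CPM and log2 fold changes between −1 and 1 (grey), with the 10 co-repressor genes marked and those called filled. MPHOSPH8 lies lowest of the 10 at −0.49 and CBX5 highest at 0.25.

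Levels of different genes were compared per length, as CPM divided by the kilobases of exonic sequence annotated for the gene. TRIM28 was by far the highest of the 10, with 154 ± 7.44 CPM per kb in mimic cells and 167 ± 7.16 in mock cells (SD, n = 3 each), and its mean level stood at percentile 99.1 of all tested genes. CBX1 followed with 57.3 ± 1.41 CPM per kb in mimic cells and 58.5 ± 5.14 in mock cells, and CBX3 with 47.7 ± 1.21 and 50.9 ± 1.18 CPM per kb in the same order of groups. CBX5 had 17.3 ± 0.91 CPM per kb in mimic cells and 14.5 ± 0.50 in mock cells. SETDB1, MORC2, TASOR, MPHOSPH8, PPHLN1 and ATF7IP lay between 7.84 and 14.5 CPM per kb in mimic cells and between 7.36 and 13.5 CPM per kb in mock cells, with ATF7IP the lowest in both.

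The order of these levels was the same in both groups for the top 4 genes and for PPHLN1 and ATF7IP at the bottom. It differed for the genes in between. In mimic cells MPHOSPH8 was eighth, at 9.26 ± 0.79 CPM per kb, and its libraries overlapped those of PPHLN1, the next gene down. In mock cells it was sixth, at 13.0 ± 0.45 CPM per kb, and its libraries overlapped those of SETDB1 above and MORC2 below. The other neighbours whose libraries overlapped were MORC2 and SETDB1 in mimic cells and CBX5 and SETDB1 in mock cells. Long annotated exons that a cell does not use lower a level per kb, and CBX5, ATF7IP and PPHLN1 have the most annotated exonic sequence of the 10, at 15040, 13189 and 12155 bases.

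Shares within a library do not depend on how libraries are scaled. The shares of the 3 genes in a set make up its whole, so a fall of any gene raises the shares of the others. MPHOSPH8 made up 30.4 ± 2.18% of the summed counts per kb of the HUSH core in mimic libraries and 39.2 ± 1.5% in mock libraries (SD, n = 3 each). TASOR made up 40.7 ± 1.58% in mimic libraries and 32.4 ± 1.66% in mock libraries. The share of PPHLN1 was 28.9 ± 0.71% in mimic libraries and 28.5 ± 0.39% in mock libraries, a difference smaller than the spread. The most abundant HUSH core transcript per kb was TASOR in every mimic library and MPHOSPH8 in every mock library. This order rests on division by annotated exon length: in CPM, not divided by length, MPHOSPH8 was the lowest of the 3 genes in every library of both groups.

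Among the HP1 genes, CBX5 took 14.5%, 14.4% and 13.5% of the summed counts per kb in the mimic libraries and 11.1%, 11.6% and 12.5% in the mock libraries. CBX3 took 39.0 ± 0.84% in mimic libraries and 41.1 ± 1.24% in mock libraries, and CBX1 took 46.9 ± 1.05% and 47.1 ± 1.96% in the same order. The ratio of ATF7IP to SETDB1 counts per kb was 0.552 ± 0.031 in mimic libraries and 0.547 ± 0.022 in mock libraries, and that of TRIM28 to SETDB1 was 10.9 ± 0.96 in mimic libraries and 12.4 ± 1.16 in mock libraries. Shares within the HP1 genes, and within the HUSH core, depend on each other and are not separate results. For MPHOSPH8, TASOR, CBX5 and CBX3 the shares of the groups did not overlap. Each of these gave p = 0.1 in a two-sided exact permutation test, the smallest that 3 against 3 libraries allow, or 0.2 after Benjamini-Hochberg adjustment over 8 such tests, so none could pass.

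**Figure D4:**
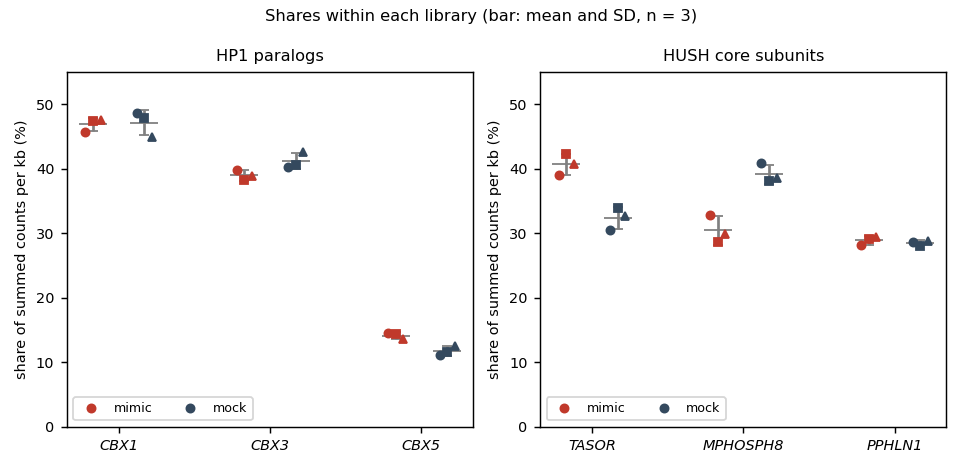
Share of each HP1 gene (left) and each HUSH core gene (right) in the summed counts per kb of its group of 3 genes, in percent, per library; bars are the mean and SD (n = 3). TASOR and MPHOSPH8 change places between mimic libraries (40.7% and 30.4%) and mock libraries (32.4% and 39.2%), and CBX5 is higher in mimic libraries (14.1%) than in mock libraries (11.7%).

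Other genes of this silencing pathway were read from 10 lists with 66 tested genes, of which 14 rose and 2 fell by edgeR, or 21.2% and 3.03%, beside 6.80% and 6.19% of all tested genes. With DESeq2 9 rose and 2 fell. The median log2 fold change over the 66 genes was 0.04. The lists were chosen with earlier results of these data known. Each of the 66 genes had a mean of at least 5 CPM, and 15.7% of all such genes were called in either direction. Of the 16 changed genes, 10 were called under all 11 alternatives, and GATAD2A, SUV39H2, CHAF1A, LRIF1, SUMO2 and ZNF649 were not. SUV39H2 was called under 2 of the 11 alternatives and LRIF1 under 4.

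The NuRD complex is the nucleosome remodelling and deacetylase complex that TRIM28 recruits, and 4 of its 13 tested genes rose and 1 fell. CHD3, the remodelling ATPase that binds sumoylated TRIM28, had 327, 324 and 348 CPM in the mimic libraries and 234, 244 and 248 CPM in the mock libraries. This was a log2 fold change of 0.46 ± 0.05 (adjusted p = 5.79e-12 by edgeR), with a wide gap between the groups. MTA1, a scaffold subunit, changed by 0.37 ± 0.05, and the deacetylase HDAC1 by 0.27 ± 0.05. RBBP7, a histone-binding subunit, fell to 531 ± 24.7 CPM in mimic cells, against 609 ± 3.07 CPM in mock cells. The fourth risen gene was GATAD2A (0.20 ± 0.05; adjusted p = 0.0854 without mock replicate 1), named here for completeness after its value was seen.

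Small ubiquitin-like modifiers attached to TRIM28 are what SETDB1 and CHD3 bind, and in the SUMO list 2 of 12 tested genes rose and 1 fell. SUMO3 had 152, 138 and 157 CPM in the mimic libraries and 115, 119 and 114 CPM in the mock libraries, a log2 fold change of 0.36 ± 0.05 (adjusted p = 6.51e-07 by edgeR). In the same list the log2 fold change of SUMO2 was 0.18 ± 0.05, and its call ended with DESeq2 (adjusted p = 0.0609) and on leaving out mimic replicate 2 (0.0607), mock replicate 2 (0.09) or mock replicate 3 (0.0861). PIAS4, a SUMO ligase, had 39.7, 39.8 and 39.2 CPM in the mimic libraries and 51.0, 48.4 and 51.3 CPM in the mock libraries, a log2 fold change of −0.34 ± 0.08.

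The list of other H3K9 methyltransferases, which includes a partner protein of such enzymes, had 5 tested genes, of which 2 rose. EHMT1 (GLP) rose to 159 ± 2.49 CPM in mimic cells, against 140 ± 3.91 CPM in mock cells, and SUV39H2 changed by 0.23 ± 0.08. EHMT2, and DAXX from the list of HP1 partners, had 1 and 2 counts over all libraries and were not tested. These counts are not read as a lack of expression. Of the TRIM28 paralogs TRIM66 rose, with 24.0, 22.4 and 23.0 CPM in the mimic libraries and 16.01, 18.8 and 15.4 CPM in the mock libraries, a log2 fold change of 0.46 ± 0.11. Of 10 tested HP1 partners and histone H3.3 genes 2 rose: CHAF1A, a chromatin assembly subunit that binds HP1 (0.16 ± 0.05), and LRIF1, an HP1-binding partner of SMCHD1 (0.27 ± 0.09). With DESeq2 neither was called, and leaving out 1 library at a time gave 0 to 3 called genes in this list. CHAF1A was called under 7 of 11 alternatives and LRIF1 under 4. CHAF1A lost its call when mimic replicate 1 or either of mock replicates 1 and 2 was left out, and LRIF1 kept its call only when the library left out was mimic replicate 3.

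Zinc-finger proteins that recruit TRIM28 to known repeats or imprinted loci had 3 risen genes of 6 tested. ZNF91, which represses SVA elements, had 46.8, 43.0 and 48.5 CPM in the mimic libraries and 33.0, 34.2 and 27.7 CPM in the mock libraries, a log2 fold change of 0.53 ± 0.08 (adjusted p = 1.63e-06 by edgeR). ZNF93, which binds LINE-1 elements, changed by 0.47 ± 0.12, and ZNF649, another KRAB protein, by 0.38 ± 0.10. The other 3, named after their values were seen, were not called by edgeR. These were ZNF445 (−0.14 ± 0.07, adjusted p = 0.186), ZNF274 (0.15 ± 0.07, adjusted p = 0.187) and ZNF10 (0.02 ± 0.15, adjusted p = 0.966). All 3 risen genes lie on chromosome 19, where 24.6% of tested genes with a numbered ZNF or ZFP symbol rose and none fell. Zinc-finger genes of this class belong to large families of similar sequence, so these counts could be split between relatives.

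The 4 remaining lists had no gene called by edgeR or DESeq2 with all 6 libraries. Beside the counts at an unadjusted p under 0.05 that follow, 3979 of all 15607 tested genes had such a p by edgeR. Of 4 paralogs of ATF7IP, TASOR and MORC2, none had an unadjusted p under 0.05, and the smallest p was that of MORC4 (log2 fold change −0.11 ± 0.06, adjusted p = 0.28 by edgeR). Of 3 DNA methylation genes, 1 had an unadjusted p under 0.05, the maintenance methyltransferase DNMT1 (0.12 ± 0.05, adjusted p = 0.0797). Of 7 H3K9 demethylases, 2 had an unadjusted p under 0.05, and the smallest p was that of KDM4A (−0.15 ± 0.06, adjusted p = 0.0877). The other was KDM3A, named after its value was seen, with the opposite sign (0.16, adjusted p = 0.0889 by edgeR). Without mimic replicate 3 the log2 fold change of KDM3A was 0.25 and was called (adjusted p = 0.000278 by edgeR). Of 3 genes of the NEXT complex, which hands nuclear RNA to the exosome and works with HUSH, none had an unadjusted p under 0.05, and MTREX had the smallest p (−0.09 ± 0.05, adjusted p = 0.283).

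**Figure D5:**
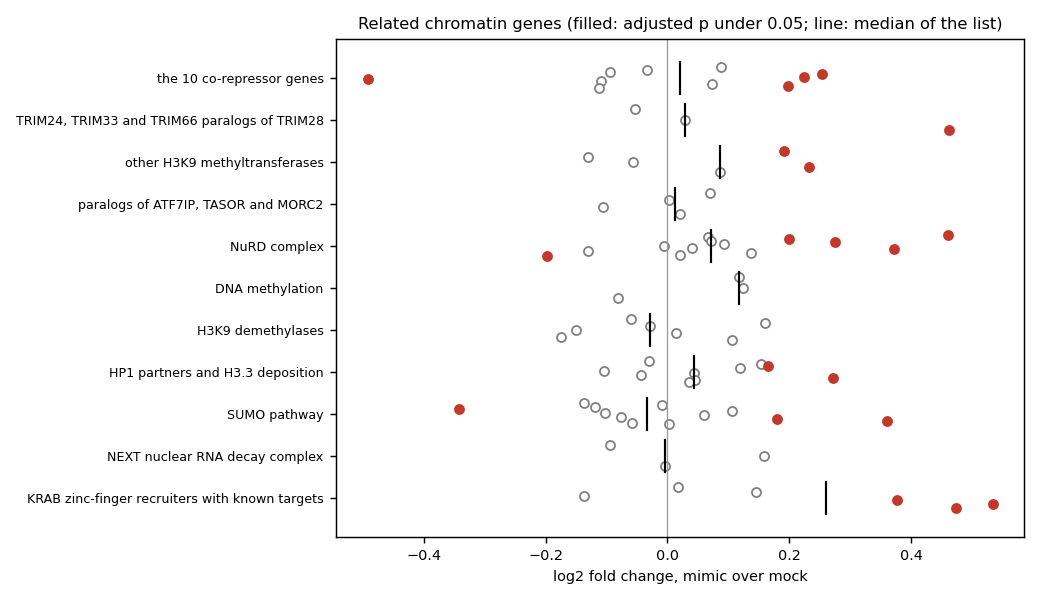
Log2 fold change, mimic over mock, of each tested gene in the 10 co-repressor genes and in the 10 lists of related chromatin genes; filled points passed an adjusted p of 0.05 and black lines are list medians. The 16 called points outside the 10 co-repressor genes reach from −0.34 (PIAS4) to 0.53 (ZNF91).

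The genes whose pattern over the 6 libraries was nearest to that of MPHOSPH8, the member with the smallest p, were FHIP2A, DSG2 and TSR2. Likeness was the root mean square difference of log2(CPM + 0.5) centred on each gene's own mean, compared over 12885 other genes of at least 5 CPM. It was 0.047 for FHIP2A, 0.049 for DSG2, a desmosomal cadherin, and 0.051 for TSR2. These genes were named for this likeness, so their change is a description: DSG2 had 206, 193 and 198 CPM in the mimic libraries and 292, 283 and 283 CPM in the mock libraries.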

How the data were processed

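The deposited tables hold whole-number counts of reads per Ensembl gene for each of the 6 libraries, and list only genes with at least 1 count. An absent gene was taken as 0. Per the submitters' processing notes STAR, edgeR and hg19 were used; which program, annotation and strand setting did the counting is not given in the labels. Symbols for 25141 of 26613 genes came from a table of gene names. Counts were filtered with filterByExpr (15607 genes, 99.7% of counts), scaled with TMM factors of 0.994 to 1.01 and tested with edgeR 4.0.16 (quasi-likelihood, robust, group only, Benjamini-Hochberg) in R 4.3.3; DESeq2 1.42.0 was an alternative. Standard errors were derived from the test statistic. Lengths, overlaps and 3′ UTRs came from GENCODE release 29 on GRCh38, not the build of the counts, and coordinates are given in GRCh38 only. Matches to part of the seed are not reported here. Each library was taken as 1 replicate, following the labels. Between libraries of 1 group the chi-square per degree of freedom, near 1 for sampling noise alone, was 1.29 to 2.50. This measure cannot tell separate transfections from separate preparations of the same RNA. The highest values were those of mimic replicate 3 against mimic replicate 1 (2.14) and mimic replicate 2 (2.50). A count of 3 equals 0.392 to 0.493 CPM, and without molecular identifiers counting errors cover counting only.

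The 10 genes, the lists and the alternatives were chosen with earlier results of these data known. Named from each list were at most 4 called genes by smallest p, or the gene with the smallest p where none was called, and the 3 genes with the profile nearest to the member of smallest p. GATAD2A, KDM3A, ZNF445, ZNF274 and ZNF10 fall outside this rule, as do EHMT2 and DAXX, which were not tested.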

Additional observations from a re-analysis of the deposited data

How the results depend on the processing

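MPHOSPH8 and CBX5 were called under all 11 alternatives. With DESeq2's Wald test 1015 genes were called (516 risen, 499 fallen), 2 of the 10 co-repressor genes (1 risen) and 9 risen genes of the related lists, and MORC2 (log2 fold change 0.22) and TASOR (0.20) lost their calls. Leaving out 1 library at a time gave 1302 to 2061 called genes (689 to 1080 risen, 613 to 981 fallen), 2 to 4 of the 10 genes (1 to 3 risen) and, in the related lists, 9 to 14 risen and 2 to 4 fallen. MORC2 then ranged from 0.15 to 0.28 and TASOR from 0.15 to 0.24. The cause was not tested.

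From raw counts without division by length, the difference in share, mimic minus mock, was −3.58 percentage points for CBX3, 5.09 for CBX5 and −5.84 for MPHOSPH8, and it reversed to −1.41 for PPHLN1. With 1 library left out, the difference for the CBX1 share ranged from −1.38 to 0.47 percentage points and for the ATF7IP to SETDB1 ratio from −0.0081 to 0.022, both around 0.

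No pairing by replicate number was seen. Deviations of libraries with the same number correlated at −0.051 to 0.044, and those with different numbers at −0.057 to 0.076. Counting noise enters these correlations, so a weak pairing could go unseen. With the replicate block 1819 genes were called, all 4 calls among the 10 genes were made, and 15 of the related genes were called, SUV39H2 not among them. Counts of 290 to 5194 per gene and library limit single values to the counting errors given above.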

Other observations

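Zinc-finger genes, many of which encode the proteins that recruit TRIM28 and whose own clusters on chromosome 19 are known to carry its marks, were counted by symbol (ZNF or ZFP followed by a number), a set chosen with earlier results of these data known. Of 232 tested on chromosome 19, 57 rose and none fell by edgeR (24.6% risen), with 78 risen and none fallen at an unadjusted p under 0.05 and 28 risen and none fallen by DESeq2. Of 255 on other chromosomes, 40 rose and 3 fell (15.7% risen), with 81 risen and 5 fallen at an unadjusted p under 0.05 and 19 risen and 1 fallen by DESeq2. Among all tested genes 6.80% rose and 6.19% fell, with 2028 higher and 1951 lower at an unadjusted p under 0.05 and 516 risen and 499 fallen by DESeq2. The median log2 fold change was 0.16 on chromosome 19, 0.09 on other chromosomes and 0.00 over all tested genes. These genes share sequence and may share reads, and whether their change is related to that of CBX5, MORC2, TASOR or MPHOSPH8 was not tested.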
